A study of Mus musculus with 6 samples.

Results

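The transcripts described here encode 10 DNA-binding or DNA-associated regulators of heart development and of the adult heart muscle cell: Gata4, Gata6, Nkx2-5, Tbx5, Tbx20, Hand2, Mef2a, Mef2c, Mef2d and Hopx. They were chosen by gene symbol, and all 10 were found among the 24315 rows of the expression table. Messenger RNA had been sequenced from the whole hearts of 6 male C57Bl6J mice aged 6 weeks. The 3 cKO hearts were cyclin C fl/fl with an aMHC cre transgene, in which the promoter of the alpha myosin heavy chain gene drives Cre recombinase in cardiomyocytes. The 3 fl/fl hearts carried the floxed cyclin C alleles without the transgene, so the deletion and the presence of Cre differed together. The comparison asks how transcripts of the heart differ when cyclin C, a subunit of the kinase module of the transcriptional coactivator complex Mediator, is deleted in cardiomyocytes.

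Cardiac transcription factors work as a mutually reinforcing network. GATA zinc finger proteins, the homeodomain protein Nkx2-5, T-box proteins, the basic helix-loop-helix protein Hand2 and MADS box proteins of the Mef2 family bind one another's enhancers and together switch on sarcomere, ion channel and natriuretic peptide genes. Hopx is the exception in kind: it is a small homeodomain-only protein that does not bind DNA itself, acts downstream of Nkx2-5, restrains serum response factor (Srf) and works with the histone deacetylase Hdac2.

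Expression was given as FPKM, fragment counts scaled to transcript length and to the mapped fragments of the library, a measure per length that allows levels of different genes to be compared. Read numbers are not known, but from the spacing of low values the relative depth of the libraries ran from 0.886 to 1.10, with fl/fl 1 set to 1. The sum of all FPKM was 589196 to 616158 in cKO and 627881 to 768960 in fl/fl. Libraries fl/fl 1 and fl/fl 2 stood apart in markers of neighbouring tissue: 7 adipocyte markers summed to 8.39 to 18.6 FPKM in cKO, against 437, 23.4 and 15.0 FPKM in fl/fl 1 to 3. The sum of 6 thymocyte markers was 0.794 to 2.92 FPKM in cKO, against 68.0, 0.440 and 1.16 FPKM in fl/fl 1 to 3. The sum of 5 lung markers was at most 0.363 FPKM in cKO, against 4.30, 18.3 and 0.05 FPKM in fl/fl 1 to 3. Replicate 3 of both genotypes differed from the other replicates in clock genes, with Arntl reaching 13.7 FPKM in cKO 3 and 8.84 FPKM in fl/fl 3, where the remaining hearts held no more than 1.36 FPKM. Cyclin C (Ccnc) itself read 5.81, 5.70 and 4.53 FPKM in cKO 1 to 3, against 8.48, 7.60 and 10.8 FPKM in fl/fl 1 to 3, and did not pass the test across all genes (limma, adjusted p = 0.144).

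The promoter sequences of Hopx are shown first, because Hopx was the 1 member that passed the test across all genes. RefSeq lists 2 start sites for it on mouse chromosome 5, minus strand. Each window runs from 250 bases before the start to 50 after it, in build GRCm38.p6, at chr5:77115074-77115373 for start site 1 and chr5:77095218-77095517 for start site 2. Capitals mark matches to binding motifs of the factors described here and of Srf.
Hopx start site 1: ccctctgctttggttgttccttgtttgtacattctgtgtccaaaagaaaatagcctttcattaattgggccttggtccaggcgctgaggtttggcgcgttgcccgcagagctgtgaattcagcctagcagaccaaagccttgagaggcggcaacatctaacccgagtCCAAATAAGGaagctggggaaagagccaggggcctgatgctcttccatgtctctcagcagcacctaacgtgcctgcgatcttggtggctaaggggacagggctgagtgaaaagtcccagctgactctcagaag
Hopx start site 2: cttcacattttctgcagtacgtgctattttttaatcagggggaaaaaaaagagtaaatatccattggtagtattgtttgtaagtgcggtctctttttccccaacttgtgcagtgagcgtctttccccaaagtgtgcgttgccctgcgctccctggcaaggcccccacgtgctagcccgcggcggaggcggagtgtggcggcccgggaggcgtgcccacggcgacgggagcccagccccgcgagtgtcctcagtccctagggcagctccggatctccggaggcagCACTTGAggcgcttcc
The capitals of start site 1 are a match to the CArG motif of Srf, beginning 83 bases before the start. Of 32841 mouse promoter windows of the same length, 1.63% held such a match on either strand. The capitals of start site 2 are a match to TNAAGTG, the Nkx2-5 element, read on the opposite strand and beginning at base 35 after the start. That motif was present in 11.5% of the windows, and the match overlaps an E-box (CANNTG), a motif that 72.3% of windows held and that was not put in capitals. Windows were found for 7 of the 10 members, 10 windows in all, and 1 of the 10 held the Nkx2-5 element and 1 the CArG motif. GATAA was found in 25.4% of all windows, the T-box motif AGGTGT in 13.7% and the MEF2 motif in 3.19%, and neither Hopx window held any of these. A match is a run of letters and not a shown binding site.

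Hopx was the 1 member that passed the test across all genes, and it was lower in cKO hearts. It read 268, 262 and 247 FPKM in cKO 1 to 3, against 416, 486 and 506 FPKM in fl/fl 1 to 3. Every cKO heart lay below every fl/fl heart, and the cKO values lay close together. The group means were 259 ± 10.9 FPKM in cKO and 469 ± 47.1 FPKM in fl/fl (SD, n = 3 each), a 1.81-fold lower level in cKO. On the log2(FPKM + 1) scale the change was -0.85 (SE 0.11, 95% interval -1.11 to -0.60; limma, adjusted p = 0.0242 over 12103 genes). Of all genes tested 0.587% were called in either direction, 71 genes, and 0.223% were called lower, 27 genes. By p, Hopx stood at place 8 among the 27 lower genes, and 94 tested genes had a lower log2 change. For Hopx alone, the exact permutation p (two-sided) was 0.1, the lowest that groups of 3 can reach. In the authors' deposited table Hopx was called as well, with a log2 fold change of -0.86 and a q-value of 0.00301, and it was the 1 member of 10 called there, where 3.77% of 12587 tested genes were called and 2.08% were called lower.

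The call of Hopx depended on which hearts entered the fit. It held without fl/fl 1 (log2 change -0.94, adjusted p = 0.0307) and ended without each of the other libraries, with limma adjusted p = 0.116, 0.144 and 0.104 without cKO 1, 2 and 3 and 0.0684 and 0.0838 without fl/fl 2 and fl/fl 3. The log2 change over all 17 alternatives ran from -0.94 to -0.73. Within replicates 1 and 2 it was -0.76 (adjusted p = 0.255), and replicate 3 holds 1 library per genotype, at 247 FPKM in cKO and 506 FPKM in fl/fl.

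**Figure D1:**
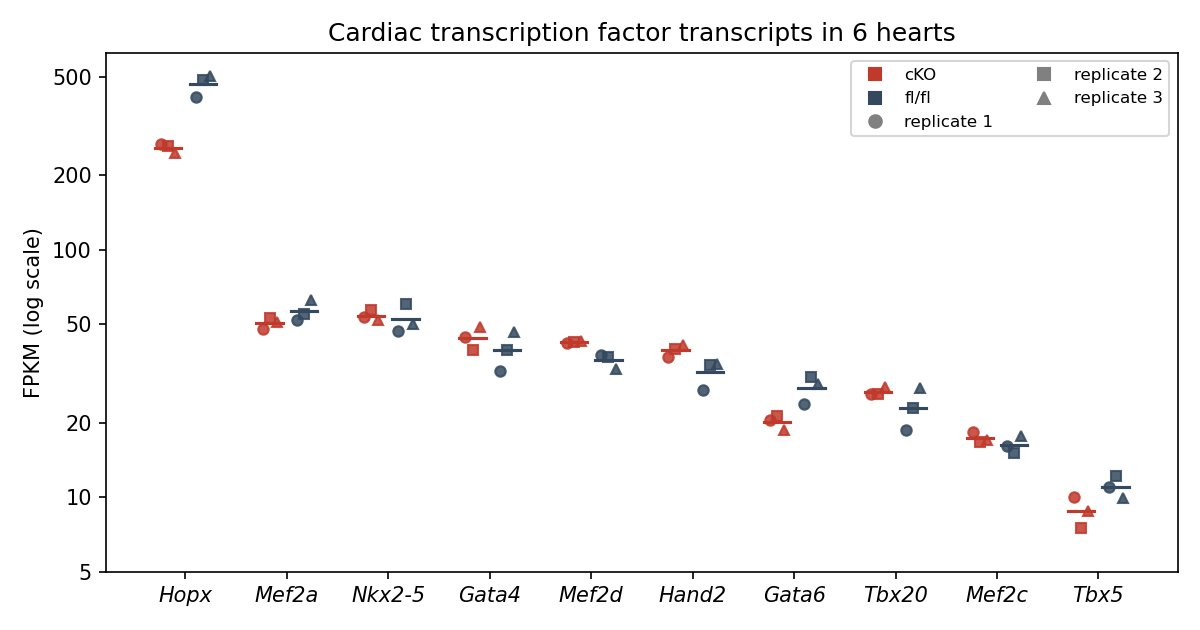
FPKM of the 10 transcription factors on a log axis, for 3 cKO hearts (red, left) and 3 fl/fl hearts (dark, right) per gene, with marker shape giving the replicate and a line the group mean. Hopx is the most abundant, and its cKO values (247 to 268 FPKM) lie below its fl/fl values (416 to 506 FPKM), while most other genes overlap or nearly touch.

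Hopx was also by far the most abundant of the 10 transcripts in both genotypes. In cKO the order of the other mean levels was Nkx2-5 (54.3 FPKM), Mef2a (50.7), Gata4 (44.2), Mef2d (42.5), Hand2 (39.3), Tbx20 (26.7), Gata6 (20.2), Mef2c (17.4) and Tbx5 (8.79). In fl/fl it was Mef2a (56.7 FPKM), Nkx2-5 (52.5), Gata4 (39.4), Mef2d (35.8), Hand2 (32.0), Gata6 (27.7), Tbx20 (23.1), Mef2c (16.3) and Tbx5 (11.1). In cKO the ranges of Nkx2-5, Mef2a, Gata4 and Mef2d overlapped from one to the next, whereas from Mef2d downwards each gene lay above the next in all 3 hearts. In fl/fl the ranges of Mef2a and Nkx2-5 overlapped, as did those of neighbours from Gata4 through Mef2d, Hand2 and Gata6 to Tbx20.

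Nkx2-5, the homeodomain factor upstream of Hopx in the cardiac network, was not called. It read 53.8, 57.2 and 51.9 FPKM in cKO, against 47.2, 60.2 and 49.97 FPKM in fl/fl. The cKO values lay inside the fl/fl range, and the 95% interval of the log2 change ran from -0.20 to 0.31 (limma, adjusted p = 0.868). Without fl/fl 1 its log2 change had the opposite sign (-0.02). The partners of Hopx were measured too. Srf read 34.2, 33.2 and 40.3 FPKM in cKO, against 27.3, 29.2 and 35.01 FPKM in fl/fl, with overlapping groups (limma, adjusted p = 0.469). Hdac2 read 41.7, 40.7 and 41.9 FPKM in cKO, against 46.0, 56.8 and 53.3 FPKM in fl/fl, lower in each cKO heart but not called (limma, adjusted p = 0.271).

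Neither GATA factor was called, and their log2 changes had opposite signs. Gata6 read 20.6, 21.4 and 18.7 FPKM in cKO, against 23.8, 30.6 and 28.8 FPKM in fl/fl. The groups did not overlap, yet the log2 change of -0.43 (SE 0.12, 95% interval -0.70 to -0.16) did not pass the test (limma, adjusted p = 0.210). Gata6 had a q-value of 0.0706 in the authors' deposited table. The files place Gata6 on chromosome 18 on 1 stretch with the row 1010001N08Rik, so some reads may have been shared between the rows. Gata4 read 44.6, 39.3 and 48.7 FPKM in cKO, against 32.3, 39.3 and 46.6 FPKM in fl/fl, with overlapping groups (log2 change 0.17, limma, adjusted p = 0.648; 0.04 without fl/fl 1). Gata4 and Gata6 have partly interchangeable roles in the heart, so their balance within a library was examined. Gata4 made up 68.4%, 64.7% and 72.3% of their summed FPKM in cKO, against 57.6%, 56.2% and 61.8% in fl/fl. The lowest cKO share was above the highest fl/fl share, with means of 68.5% ± 3.796 in cKO and 58.6% ± 2.92 in fl/fl (SD, n = 3 each; two-sided exact permutation p = 0.1, the smallest possible). Gata5, the third GATA factor of the heart, was at most 0.487 FPKM in any heart. The cofactors that bind GATA proteins did not pass either: Zfpm1 averaged 10.9 ± 1.71 FPKM in cKO and 8.82 ± 0.400 FPKM in fl/fl (SD, n = 3 each), and Zfpm2 averaged 5.95 ± 0.791 FPKM in cKO and 6.87 ± 1.25 FPKM in fl/fl (SD, n = 3 each).

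The T-box factors were not called. Tbx5, which patterns the atria and the conduction system and is required for the atrial rhythm, read 10.03, 7.51 and 8.84 FPKM in cKO, against 11.04, 12.2 and 9.94 FPKM in fl/fl. The groups met at cKO 1 and fl/fl 3, and the log2 change was -0.30 (SE 0.13, 95% interval -0.60 to -0.01; limma, adjusted p = 0.386). Of 10 markers of atrial cardiomyocytes, Bmp10 and Sbk2 were called lower (0.223% of all genes tested were), and 8 were lower in each cKO heart than in any fl/fl heart (10.3% of all genes tested were). The signs of 9 were negative, and the groups overlapped for Nppa and Stk39. Without cKO 1 the number called was 6, and without each of the other libraries it was 1. The call of Sbk2 (limma, adjusted p = 0.0385) held without cKO 1 and ended without each of the other libraries, with adjusted p from 0.103 without cKO 3 to 0.169 without cKO 2. The summed level of the atrial markers was 4294, 1293 and 2416 FPKM in cKO, against 6412, 4357 and 3644 FPKM in fl/fl. Most of this sum in each heart was Nppa, at 3231, 1040.2 and 2178 FPKM in cKO, against 3715, 2436 and 1827 FPKM in fl/fl. The sum therefore follows Nppa and does not show the separation of the 8 markers counted above. Tbx5 and this sum were both highest in cKO 1 within cKO, whereas within fl/fl the sum was highest in fl/fl 1 and Tbx5 in fl/fl 2. None of the 10 markers was at the lowest value in every library, and their part in the value of Tbx5 was not tested. Tbx20, needed for adult contractile function, read 26.1, 26.1 and 27.9 FPKM in cKO, against 18.7, 22.9 and 27.6 FPKM in fl/fl (log2 change 0.22, limma, adjusted p = 0.531; 0.08 without fl/fl 1). The relatives Tbx2, Tbx3 and Tbx18, which act in non-chamber myocardium and the epicardium, were lower in level, with means of 5.38, 4.10 and 1.86 FPKM in cKO and 4.86, 3.598 and 1.88 FPKM in fl/fl, and none was called.

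Hand2, which acts with GATA factors, read 36.8, 39.7 and 41.3 FPKM in cKO, against 27.2, 34.2 and 34.5 FPKM in fl/fl. Each cKO heart was above each fl/fl heart, but the log2 change of 0.29 (SE 0.12, 95% interval 0.03 to 0.56) did not pass (limma, adjusted p = 0.360), and it was 0.19 without fl/fl 1. Its relative Hand1 was listed at 0.01 FPKM, the lowest value of the table and its stand-in for 0, in all 6 hearts.

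The Mef2 factors translate calcium and kinase signals into muscle gene expression, held back by class IIa histone deacetylases. Because their proteins share a conserved MADS box, the start of the 3 coding sequences is shown (GENCODE M21 transcripts, 171 bases from the start codon, with capitals at bases that differ from Mef2a). Mef2a lies on chromosome 7, Mef2c on chromosome 13 and Mef2d on chromosome 3.
Mef2a: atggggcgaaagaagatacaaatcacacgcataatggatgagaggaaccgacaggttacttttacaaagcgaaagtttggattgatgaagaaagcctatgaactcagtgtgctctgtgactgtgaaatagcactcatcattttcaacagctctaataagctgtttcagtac
Mef2c: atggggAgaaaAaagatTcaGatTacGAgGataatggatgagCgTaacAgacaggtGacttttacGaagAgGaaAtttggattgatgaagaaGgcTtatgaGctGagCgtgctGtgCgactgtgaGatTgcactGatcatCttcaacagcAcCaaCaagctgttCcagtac
Mef2d: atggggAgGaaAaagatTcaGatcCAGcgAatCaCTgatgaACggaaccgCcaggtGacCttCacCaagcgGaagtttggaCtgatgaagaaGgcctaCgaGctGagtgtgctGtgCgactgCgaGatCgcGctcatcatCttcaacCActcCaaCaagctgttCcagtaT
Over this stretch Mef2c was 81.9% and Mef2d 77.8% identical to Mef2a, with 31 and 38 differing bases. Over the longest coding sequences the longest identical run was 28 bases, between Mef2c and Mef2d, and it was 18 bases between Gata4 and Gata6. No longer identical run was found in the pairs compared, which were the Mef2 genes, the GATA genes and the T-box genes.

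Mef2a and Mef2d had log2 changes of opposite sign, and neither was called. Mef2d read 42.1, 42.6 and 42.7 FPKM in cKO, against 37.6, 36.9 and 32.9 FPKM in fl/fl. Each cKO heart was above each fl/fl heart, and the log2 change of 0.24 (SE 0.09, 95% interval 0.04 to 0.45) did not pass (limma, adjusted p = 0.319). Mef2a read 48.1, 52.9 and 51.1 FPKM in cKO, against 52.3, 55.0 and 62.6 FPKM in fl/fl (log2 change -0.15, limma, adjusted p = 0.542). Mef2c, which many endothelial cells also express, read 18.4, 16.7 and 17.1 FPKM in cKO, against 16.1, 15.1 and 17.7 FPKM in fl/fl (log2 change 0.09, limma, adjusted p = 0.723). Within each heart Mef2a held 44.3%, 47.1% and 46.1% of the summed FPKM of Mef2a, Mef2c and Mef2d in cKO, against 49.3%, 51.4% and 55.3% in fl/fl, with no overlap. The share of Mef2d was 38.8%, 38.0% and 38.5% in cKO, against 35.5%, 34.5% and 29.1% in fl/fl, again with no overlap. For both shares the exact permutation p (two-sided) was 0.1, again the lowest possible, and for the share of Mef2c, 15.8% ± 1.05 in cKO and 15.0% ± 0.774 in fl/fl (SD, n = 3 each), the exact p was 0.500. Mef2b was at most 0.618 FPKM in any heart, and the deacetylases Hdac4, Hdac5 and Hdac9 were not called (limma, adjusted p = 0.688, 0.458 and 0.839).

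**Figure D2:**
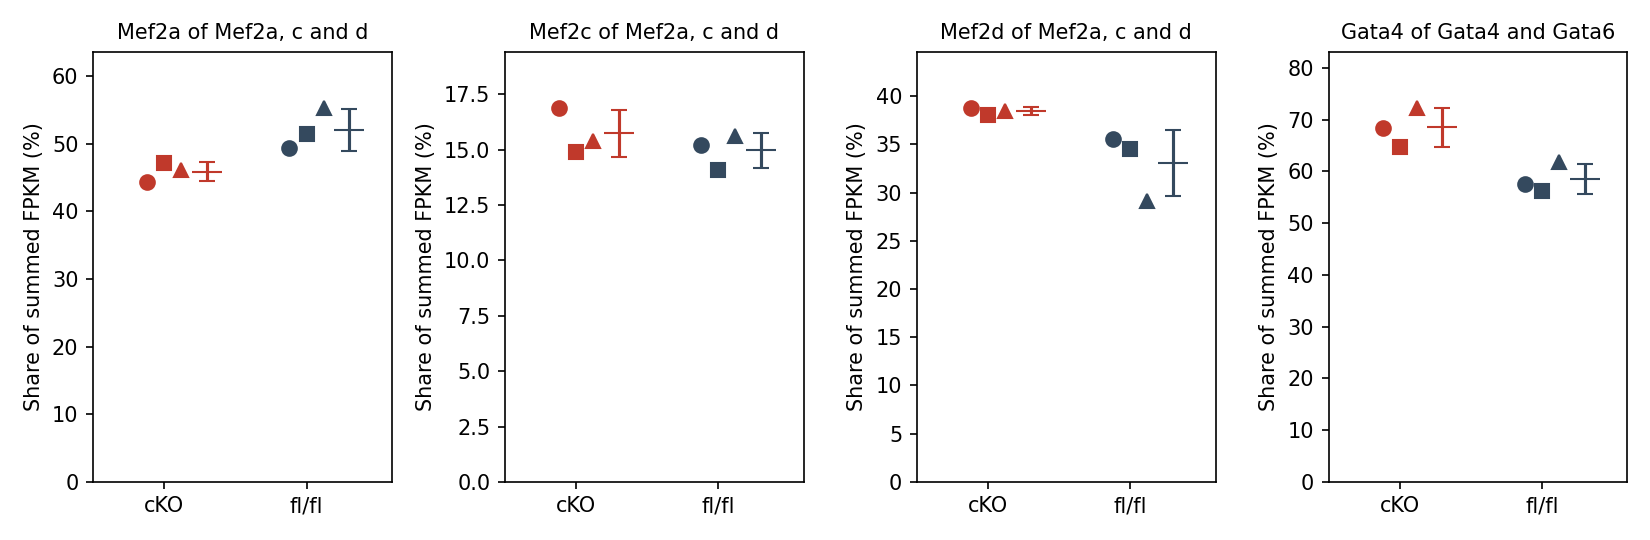
Share of the summed FPKM of a family, in percent, held by Mef2a, Mef2c and Mef2d and by Gata4 of Gata4 plus Gata6, in 3 cKO hearts (red, left) and 3 fl/fl hearts (dark, right), with mean and SD beside the points and marker shape giving the replicate. The Mef2a share is lower in cKO (45.8% against 52.0%), the Mef2d share higher (38.4% against 33.0%) and the Gata4 share higher (68.5% against 58.6%), while the Mef2c shares overlap.

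Counted together, 1 of the 10 members was called lower, 0 were called higher and 9 were not called. The groups did not overlap for 4 of the 10, lower in cKO for Hopx and Gata6 and higher for Hand2 and Mef2d, where 20.4% of all genes tested did not overlap (10.3% lower and 10.1% higher in cKO). An unadjusted limma p under 0.05 was reached by 5 of 10, these 4 and Tbx5, against 12.7% of all genes tested. The median log2 change over the 10 was 0.07, beside a median of 0.00 over all genes tested, and 6 signs were positive and 4 negative. Without Hopx the summed FPKM of the others was 300.5, 304 and 308 in cKO, against 266, 307 and 311 in fl/fl. The lowest of these 6 sums belonged to fl/fl 1, which also read lowest among the fl/fl hearts for 7 of the 10 members. With Hopx included the sum was 563 ± 7.07 FPKM in cKO and 764 ± 71.5 FPKM in fl/fl (SD, n = 3 each).

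**Figure D3:**
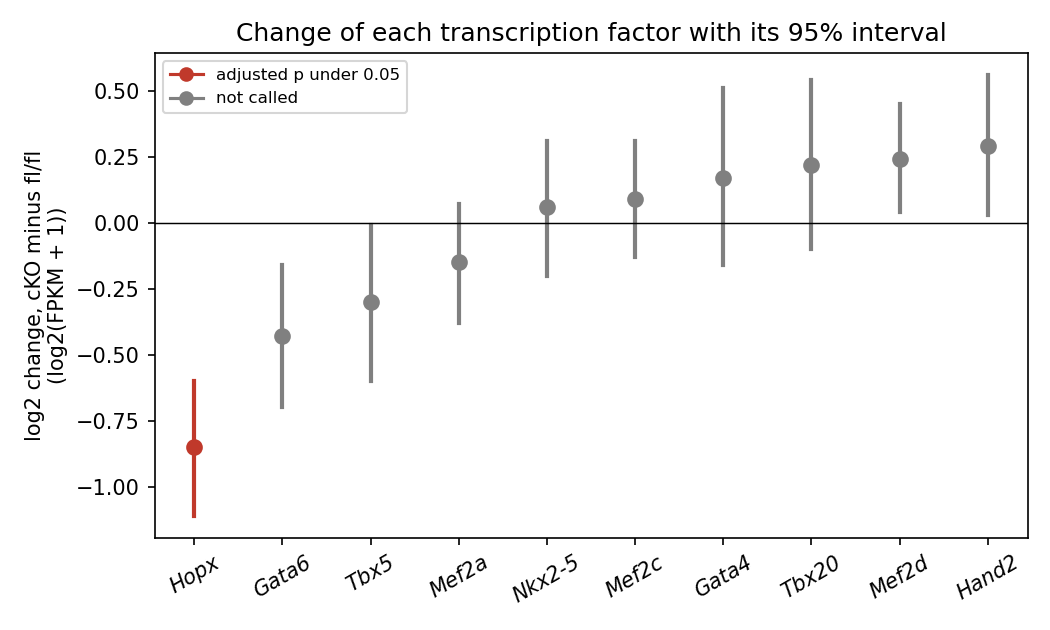
Log2 change (cKO minus fl/fl, on log2(FPKM + 1)) of each transcription factor with its 95% interval from limma, n = 3 hearts per genotype. Hopx, in red, is the 1 gene with an adjusted p under 0.05, at -0.85. Grey intervals of Gata6, Tbx5, Hand2 and Mef2d lie to one side of 0, but those genes did not pass after adjustment over all genes.

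Hopx was also set against 12 genes listed as ventricular cardiomyocyte markers, several of which are not confined to the ventricle. Of the 12, Mb, the oxygen-binding protein myoglobin, and Ryr2 were called lower and 10 were not called, where 0.223% of all genes tested were called lower. The median log2 change was -0.60, with 11 negative signs. The exception was the cardiac alpha-actin gene Actc1, which read 11177, 10446 and 11159 FPKM in cKO, against 8307, 9005 and 9546 FPKM in fl/fl (log2 change 0.29, limma, adjusted p = 0.490). Irx4 had a negative sign but overlapping groups, with means of 15.3 ± 2.26 FPKM in cKO and 15.7 ± 1.82 FPKM in fl/fl (SD, n = 3 each). Its log2 change was -0.03 (limma, adjusted p = 0.935). Mb averaged 7592 ± 699 FPKM in cKO and 18391 ± 2444 FPKM in fl/fl (SD, n = 3 each), and its call (limma, adjusted p = 0.0367) held without fl/fl 2 but ended without each of the other libraries (adjusted p = 0.0575 without fl/fl 1 and 0.162 to 0.261 without fl/fl 3, cKO 1, cKO 2 or cKO 3). The summed level of the 12 markers was 53217, 56404 and 51037 FPKM in cKO, against 75494, 102399 and 89987 FPKM in fl/fl, with no overlap, and no marker was at the lowest value in every library. Per 1000 FPKM of these markers Hopx read 5.03, 4.65 and 4.83 FPKM in cKO, against 5.51, 4.74 and 5.62 FPKM in fl/fl. On that scale the groups overlapped, and the log2 ratio of the means was -0.13 (two-sided exact permutation p = 0.300). The marker sum was itself lower in cKO, which raises any ratio over it. On the same scale 8 of the 10 members were higher in each cKO heart than in any fl/fl heart, 0 were lower in each and 2 overlapped. As FPKM, 2 of the 10 were higher in each cKO heart. The share of all genes tested that separated on the ratio scale was not computed, so the count is no result about the members. Relative to the sum of the other 9 factors, Hopx was 0.890, 0.865 and 0.800 in cKO, against 1.56, 1.58 and 1.63 in fl/fl, with no overlap. These ratios were computed after the values had been seen. In whole-heart RNA, fewer cardiomyocytes and less of a transcript per cardiomyocyte cannot be told apart.

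**Figure D4:**
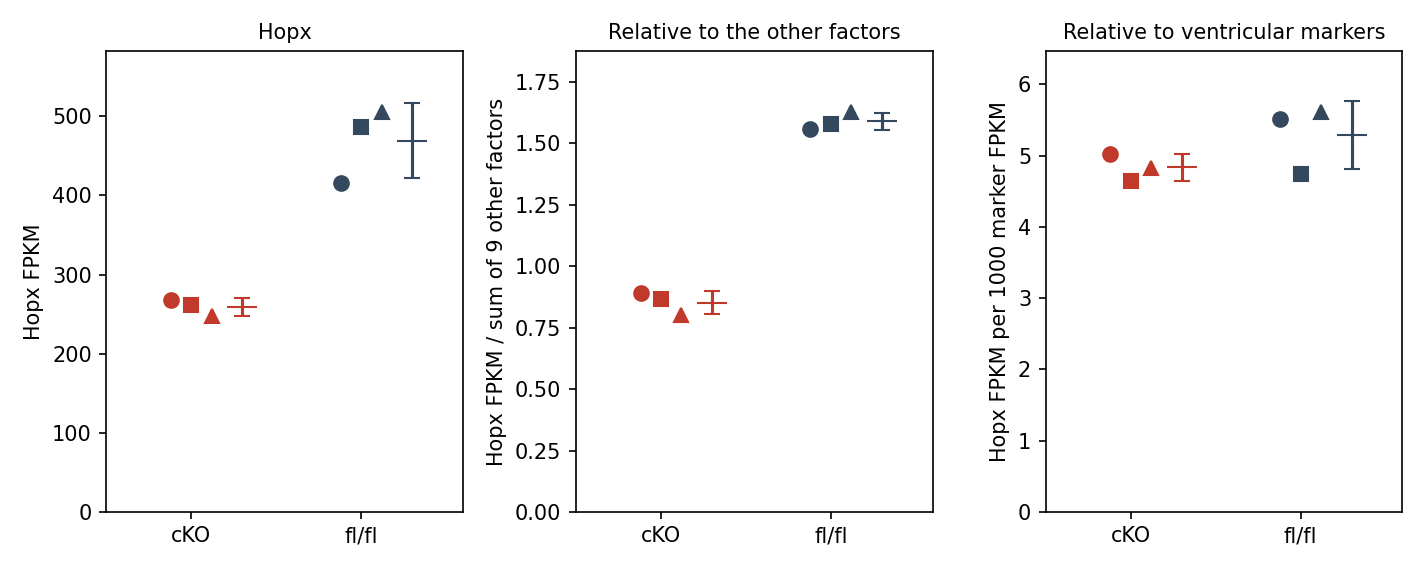
Hopx in 3 cKO hearts (red, left) and 3 fl/fl hearts (dark, right), as FPKM, relative to the summed FPKM of the 9 other factors, and per 1000 summed FPKM of 12 ventricular cardiomyocyte markers, with mean and SD beside the points and marker shape giving the replicate. The groups are separate as FPKM (259 against 469) and relative to the other factors (0.852 against 1.59), and overlap relative to the ventricular markers (4.84 against 5.29). On that last scale 8 of the 10 factors were higher in each cKO heart than in any fl/fl heart (not drawn). The marker sum was itself lower in cKO, and the share over all genes was not computed on this scale.

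Several of the factors are also made by cells other than cardiomyocytes, among them Gata4, Gata6, Tbx20 and Hand2 in fibroblasts and Mef2c in endothelial cells. All 10 fibroblast markers and all 10 endothelial markers had a positive sign, with medians of 0.25 and 0.36. In either list 0 were called, where 0.587% of all genes tested were. Higher in each cKO heart than in any fl/fl heart were 4 fibroblast and 7 endothelial markers, against 10.1% of all genes tested. An unadjusted limma p under 0.05 was reached by 3 fibroblast and 6 endothelial markers, against 12.7% of all genes tested. Fibroblast markers summed to 1174 to 1347 FPKM in cKO and 999 to 1148 FPKM in fl/fl, and endothelial markers to 521 to 649 FPKM in cKO and 424 to 454 FPKM in fl/fl. No marker of either list was at the lowest value in every library. Of the 10 smooth muscle and pericyte markers 6 had a positive and 4 a negative sign, and 1 rose, the smooth muscle actin gene Acta2 (log2 change 2.50, limma, adjusted p = 0.000212). Other contractile genes of smooth muscle, chosen after their values were seen, had negative log2 changes and were not called: -0.69 for Tagln, -0.86 for Cnn1 and -0.31 for Myh11 (limma, adjusted p = 0.239, 0.252 and 0.543). The remaining markers of this list ran from a log2 change of -0.04 for Des to 0.32 for Notch3. All of them but Des were positive, and none was called. Of 8 macrophage markers 0 were called. The part of these cells in the higher values of Hand2 and Mef2d was not tested.

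Other cardiac transcription factors and cofactors were listed beside the members. Of 32 listed, 27 reached a mean of 1 FPKM and were tested. Of these 0 passed, where 0.587% of all genes tested did. An unadjusted limma p under 0.05 was reached by 3 of the 27, against 12.7% of all genes tested. Their median log2 change was 0.08, with 20 positive and 7 negative signs. The smallest p belonged to Ankrd1, a stretch-responsive nuclear cofactor, at 1658, 1243 and 1788 FPKM in cKO, against 1081, 732 and 1060.3 FPKM in fl/fl. It was higher in each cKO heart and was not called (limma, adjusted p = 0.227). Tead4, a factor that binds the coactivator Yap1, read 1.79, 1.95 and 1.84 FPKM in cKO, against 1.46, 0.760 and 0.972 FPKM in fl/fl (limma, adjusted p = 0.315). Myocd, the cardiac and smooth muscle coactivator of Srf, averaged 9.28 ± 0.896 FPKM in cKO and 11.5 ± 1.59 FPKM in fl/fl (SD, n = 3 each; limma, adjusted p = 0.414). Isl1, a factor of the embryonic heart, was at most 0.120 FPKM.

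Among 30 textbook target genes of these factors 1 was called higher and 2 lower, where 0.364% of all genes tested were called higher and 0.223% lower, with 22 negative and 8 positive signs and a median log2 change of -0.40. Several of the 30 are also atrial or ventricular markers, among them the 2 called lower (Bmp10 and Ryr2), Myl2, Myl7 and Nppa. The counts of target genes and of markers are therefore not separate results. The skeletal alpha-actin gene Acta1, an Srf target and a gene of the fetal program, rose: it read 1059, 1109 and 1566 FPKM in cKO, against 244, 139 and 143 FPKM in fl/fl (limma, adjusted p = 0.00333). The calcium release channel gene Ryr2 fell, with 56.8, 57.3 and 51.0 FPKM in cKO, against 117, 105 and 119.6 FPKM in fl/fl (limma, adjusted p = 0.00604). Bmp10, an atrial growth factor gene, fell to 0.01, 0.0757 and 0.429 FPKM in cKO, against 54.9, 27.0 and 21.6 FPKM in fl/fl (limma, adjusted p = 0.000629). The groups did not overlap for 15 of the 30 target genes, against 20.4% of all genes tested, with 12 lower and 3 higher in cKO. The number of target genes called was 5 without cKO 1, where 33 of all genes tested were called. It was 3 without cKO 2 and 3 without cKO 3, where 13 and 26 of all genes tested were called. It was 1 within replicates 1 and 2, 0 with no filter on low values and 7 with the replicate number as a block. Over all genes tested these last fits called 13, 9 and 213. Myl2, the ventricular myosin light chain, read 8911, 10238 and 8813 FPKM in cKO, against 16100.1, 23769.7 and 20749 FPKM in fl/fl, and Myl7, its atrial counterpart, 323, 57.5 and 64.0 FPKM in cKO, against 1116, 808 and 682 FPKM in fl/fl. Neither was called (limma, adjusted p = 0.0873 and 0.0997). Myl7 was far higher in cKO 1 than in the other cKO hearts, and without cKO 1 it was called lower (log2 change -3.79, adjusted p = 0.000981). The natriuretic peptide gene Nppa, a classical target of Gata4, Nkx2-5 and Tbx5, overlapped at 3231, 1040.2 and 2178 FPKM in cKO, against 3715, 2436 and 1827 FPKM in fl/fl.

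**Figure D5:**
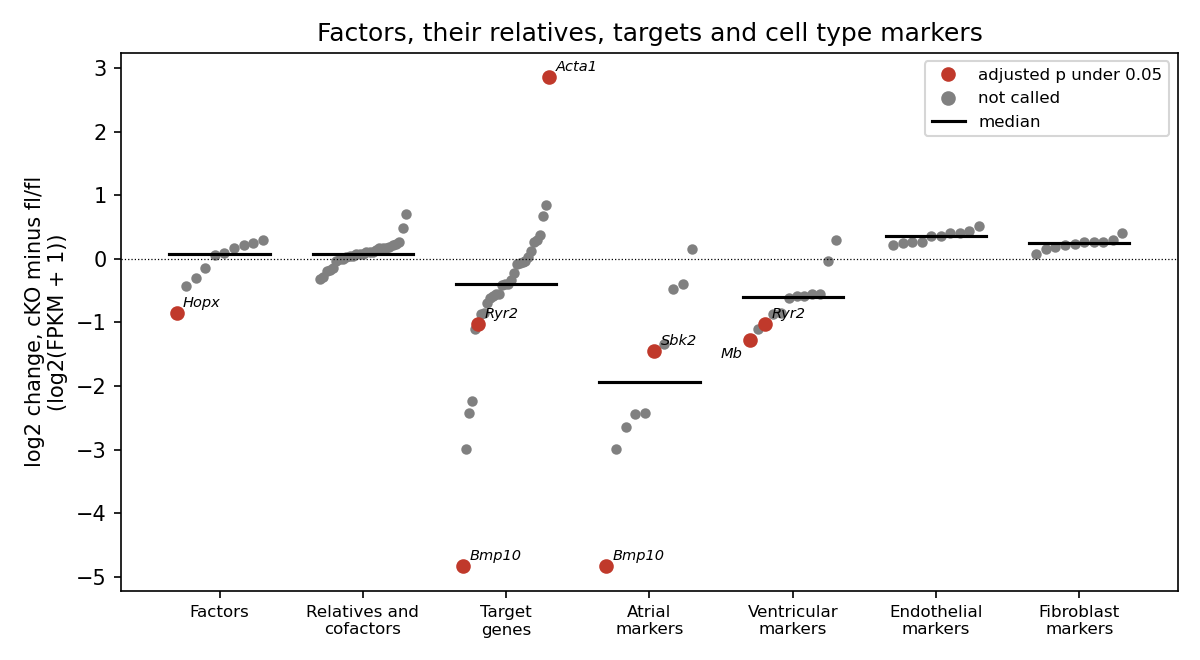
Log2 change (cKO minus fl/fl, on log2(FPKM + 1)) of every tested gene in 7 lists, 1 point per gene in rising order, with red and named points at an adjusted p under 0.05 in limma and a line at the list median. The factors span -0.85 (Hopx) to 0.29 and their relatives -0.32 to 0.71 (Ankrd1), with medians of 0.07 and 0.08. The target genes spread from -4.83 to 2.85, and the medians of the ventricular and atrial markers are -0.60 and -1.94. Several target genes are also in a marker list.

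The tested genes outside the members whose pattern over the 6 hearts was most like that of Hopx were Snhg14, Akr1b10 and Klhdc1. Likeness was measured as the root mean square difference of mean-centred log2(FPKM + 1) values, which was 0.063, 0.085 and 0.097 for them. Because the genes nearest to a member were chosen over the same 6 hearts, values and calls like its own follow from the choice. They describe the pattern and are no separate support for it. Akr1b10, an aldo-keto reductase, read 35.9, 40.4 and 38.3 FPKM in cKO, against 57.3, 67.9 and 70.1 FPKM in fl/fl, and fell in the same fit (limma, adjusted p = 0.0349). Its call held without fl/fl 1 and ended without each of the others, with adjusted p from 0.0946 without fl/fl 2 to 0.151 without cKO 1. For Gata6 the nearest genes were Suclg1, Ggnbp1 and Vdac3, with differences of 0.034, 0.035 and 0.038. Suclg1, a citric acid cycle enzyme, read 342, 332 and 296 FPKM in cKO, against 379, 488 and 443 FPKM in fl/fl. Its lowest fl/fl value was in fl/fl 1, like that of Gata6. For Tbx5 they were Bcl9, Abhd14a and Pms1, with differences of 0.051, 0.052 and 0.061, and none of the genes nearest to Gata6 or Tbx5 was called.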

How the data were processed

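FPKM per gene and library were deposited by the authors. The submitters' processing notes name TopHat 1.0.0, Cufflinks and Cuffdiff as the tools used. A second table deposited by the authors gives, for each gene, a group FPKM, a p-value, a q-value and a log2 fold change of cKO over fl/fl, per the file headers. No FPKM is below 0.01, which stands for 0. One row with a failed value was left out (24315 rows, 1 failed), and 27 rows whose names had become dates were kept unnamed. The submitters name mm10, but of 23257 rows with a GENCODE M21 symbol only 2979 overlapped that gene there, and 2 of the 10 members, so coordinates of the files are not printed.

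Differences were tested with limma 3.58.1 in R 4.3.3 on log2(FPKM + 1), with the variance allowed to follow mean level. All tests were two-sided. The 12103 genes whose mean reached 1 FPKM entered, and p-values were adjusted by Benjamini-Hochberg, with 0.05 as threshold. This scale understates changes of low genes. A called gene is one past that threshold. The limma p-values weigh a difference between genotypes against the spread between animals within a genotype. That spread was drawn toward the trend with mean level over all genes. The fit was tested on simulated data. Sequences came from RefSeq (GRCm38.p6) and GENCODE M21. The members and the lists were chosen with earlier results of these data known, so members are described and list counts carry no test. Named genes are the 10 members, Ccnc, genes called in a list, the 5 with the smallest p among relatives and among target genes, the 3 most abundant markers of a cell type, relatives at or near the lowest value (as levels only), and the 3 genes most like each of the 3 members with the largest change. Arntl, Stk39, Irx4, Tagln, Cnn1, Myh11, Notch3, Srf, Zfpm2, Tbx2, Tbx3, Tbx18, Hdac4, Hdac5 and Hdac9 were named after their values were seen. No library was a duplicate, since even the closest pair lay 0.252 apart on the log2 scale (root mean square). As alternatives, the fit was repeated with other pseudocounts, filters, normalizations and variance models, with array weights, with terms for the replicate number, and without each library. The design text calls the libraries stranded, but the kit named in the labels' protocol does not mark strand, so overlapping genes on opposite strands may share reads.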

Additional observations from a re-analysis of the deposited data

How the results depend on the processing

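No member other than Hopx was called under any of the 17 alternatives, and Hopx was called under 10 of them. All members kept their direction in these alternatives except Nkx2-5, whose log2 change was -0.02 without fl/fl 1 and 0.16 without fl/fl 2. With no filter on low values 9 genes were called in all, 0 members (Hopx adjusted p = 0.187) and 1 gene of the fixed lists, against 71, 1 and 6. Within replicates 1 and 2 the counts were 13, 0 and 2. Without an intensity trend 38 genes were called, and with the division of replicate 3 as a term 123. With the replicate number as a replicate block 213 genes were called, all 71 of the main calls among them, and 16 genes of the fixed lists, with Hopx at an adjusted p of 0.0156, Ankrd1 at 0.0408 and Myl7 at 0.00631. The block called 7 atrial markers and 7 target genes, against 2 and 3. Myl2 was called among genes with a mean of at least 5 FPKM (0.0475). The numbers were not taken as pairs: deviations from the group means correlated at 0.09, 0.27 and 0.43 for the 3 same-numbered hearts, and cKO 1 correlated more with fl/fl 2 (0.15). For each fl/fl heart, though, the same-numbered cKO heart correlated highest. Hearts numbered 3 correlated negatively with hearts of another number: fl/fl 3 at -0.25 with cKO 1 and -0.29 with cKO 2, and cKO 3 at -0.08 with fl/fl 1 and -0.33 with fl/fl 2. With 1 library left out, 13 to 34 genes, 0 to 1 members and 4 to 9 list genes were called, and the median log2 change of the members was 0.01 to 0.10. The cause of these differences was not tested. The log2 ratio of Hopx relative to the ventricular markers was -0.13, and relative to the other members -0.90, both added after seeing the data. Of the list genes, Acta2 was called under all 17 alternatives, Bmp10 under 16, Acta1 and Ryr2 under 15, and Mb and Sbk2 under 9. The number of reads is unknown, so no counting interval can be given.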
